A study of Mus musculus with 6 samples.

Results

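The natural killer receptor genes described here are 10 genes: Klra9, Klrk1, Klrd1, Klrb1c, Klre1, Klrc1, Klrc2, Klrg1 and Ncr1, which encode receptors of natural killer cells, and Eomes, which encodes a transcription factor of these cells. They were chosen by symbol from the 55536 genes of a count table of mouse thymocytes, and all 10 were found in it. Klra9 and Klrk1 were selected for their wide spread in CPM (counts scaled to a common library size) between libraries of the same genotype. Their values are therefore given as a description, without a test. The other 8 were named beside them as genes of the same kind of cell.

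Messenger RNA of thymocytes, which are T cells in development, was sequenced from 6 mice, 1 library per mouse. Per the labels, 3 mice were wildtype (Il3ra+/+) and 3 were deficient in the interleukin-3 receptor's alpha chain (Il3ra-/-), all untreated and in steady state. Strain, age, the kind of deletion and how the cells were prepared are not stated in the labels. The comparison asks how thymocytes of both genotypes differ in steady state.

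Natural killer cells carry germline-encoded receptors that weigh inhibitory against activating signals from the cell they touch. Most mouse receptors of this kind are C-type lectin-like proteins encoded side by side on chromosome 6 in the natural killer gene complex, where the Ly49 family (Klra genes) binds classical MHC class I and CD94 with an NKG2 partner binds Qa-1. Thymocytes are mostly precursors of conventional T cells and largely lack these receptors, which are known in the thymus from natural killer cells, natural killer T cells, some gamma delta T cells and other innate-like lymphocytes.

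Promoter sequences are shown for 4 members on chromosome 6: the pair picked for its spread, and the NKG2 pair, whose promoters hold a motif of the RUNX factors, known regulators of killer lymphocyte genes. Each is the 300 bases from 250 before to 50 after an annotated transcript start (RefSeq, GRCm38.p6, minus strand), at chr6:130193063-130193362 for Klra9, chr6:129623815-129624114 for Klrk1, chr6:129678924-129679223 for Klrc1 and chr6:129660547-129660846 for Klrc2. The sequences run 5′ to 3′ along the gene, and capitals mark the RUNX letters TGTGGT on either strand (ACCACA when read on the other strand).
Klra9: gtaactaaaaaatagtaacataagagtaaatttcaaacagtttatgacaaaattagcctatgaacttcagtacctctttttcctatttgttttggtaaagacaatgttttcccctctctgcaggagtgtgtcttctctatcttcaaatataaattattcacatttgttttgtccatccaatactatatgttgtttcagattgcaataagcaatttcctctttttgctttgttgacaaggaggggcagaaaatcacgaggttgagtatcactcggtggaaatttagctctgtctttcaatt
Klrk1: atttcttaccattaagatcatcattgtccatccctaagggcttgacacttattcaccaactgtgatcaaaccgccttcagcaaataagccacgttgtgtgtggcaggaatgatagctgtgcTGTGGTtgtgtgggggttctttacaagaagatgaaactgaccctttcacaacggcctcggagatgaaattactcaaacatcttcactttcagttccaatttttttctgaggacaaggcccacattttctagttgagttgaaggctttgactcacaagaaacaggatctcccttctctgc
Klrc1: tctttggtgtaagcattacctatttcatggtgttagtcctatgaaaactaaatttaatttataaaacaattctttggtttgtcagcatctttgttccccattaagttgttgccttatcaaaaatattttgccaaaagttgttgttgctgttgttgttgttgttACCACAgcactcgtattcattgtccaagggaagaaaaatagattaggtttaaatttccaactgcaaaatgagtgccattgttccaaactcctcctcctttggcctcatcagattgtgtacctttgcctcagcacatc
Klrc2: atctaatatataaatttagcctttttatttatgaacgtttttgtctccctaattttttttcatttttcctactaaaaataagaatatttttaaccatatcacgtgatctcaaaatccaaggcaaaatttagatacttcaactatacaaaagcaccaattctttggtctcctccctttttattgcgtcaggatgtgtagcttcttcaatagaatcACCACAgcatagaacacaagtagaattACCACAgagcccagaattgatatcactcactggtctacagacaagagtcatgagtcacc
The motif begins 129 bases before the start in Klrk1, 87 before it in Klrc1, and 36 and 9 before it in Klrc2. The Klra9 window holds none of the 3 motifs searched. Of the 8 members with a RefSeq promoter window, 6 held TGTGGT in at least 1 of their windows (8 of 11 windows), whereas 16.8% of 32851 promoter windows of the same length in the genome held it. The genome shares are per window, not per gene. Klre1, Klrc2 and Ncr1 have 2 overlapping windows each, which share sites, so the 11 windows are not independent. The T-box letters TCACAC stood in windows of 2 of the 8 members, Klre1 and Ncr1 (4 of 11 windows), against 14.5% of all windows. The ETS letters GGAAGT stood in the window of 1, Klrb1c (1 of 11 windows), against 23.8% of all windows. The 3 motifs share no overlapping match in these windows, and a match is a string of letters, not a bound site.

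Total counts were between 55747682 and 82684219 per library, and 18690 genes had enough counts to be tested. Il3ra, the targeted gene, had 465, 376 and 399 counts in wildtype and 481, 673 and 514 in the libraries labelled knockout (fold of 1.14, adjusted p = 0.585 by edgeR's quasi-likelihood test), so the genotype is given as labelled throughout. Replicate 1 of each genotype stood apart from the rest in sex-linked RNA. The Xist count was 88078 in the wildtype and 128236 in the labelled knockout library, but 8 to 57 elsewhere. Counts of 4 genes of the Y chromosome (Ddx3y, Eif2s3y, Kdm5d, Uty) were 0 to 5 there and 1724 to 11226 elsewhere. Each genotype thus had 1 Xist-high and 2 Xist-low libraries, and results are also given with the Xist-high libraries left out.

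Klra9 (ENSMUSG00000033024, chromosome 6, 130178675 to 130193112) encodes Ly49I, an inhibitory receptor for MHC class I. Its level was 14.6, 7.89 and 8.34 CPM in wildtype replicates 1 to 3 and 4.08, 14.9 and 13.5 CPM in labelled knockout replicates 1 to 3. Labelled knockout replicate 1 was the lowest of the 6 libraries, and the other libraries with that label were close to wildtype replicate 1. The counts behind these values were 870, 456 and 544 in wildtype and 247, 1253 and 941 in the labelled knockout, with 95% counting intervals of 3.59 to 4.62 CPM in the lowest library and 7.18 to 8.65 CPM in the next lowest. These intervals cover counting error only, not the spread between mice. The genotype means were 10.3 ± 3.75 and 10.8 ± 5.90 CPM (SD, n = 3 each), and the log2 difference was 0.08 with a standard error of 0.55. Klra9 belongs to a family of close copies: 31.5% of the 50-base stretches in its transcripts also occur in transcripts of 6 other genes, most of all Klra3 (13.1%). The sources used here do not say how such reads were counted, so its level is uncertain to that extent.

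**Figure D1:**
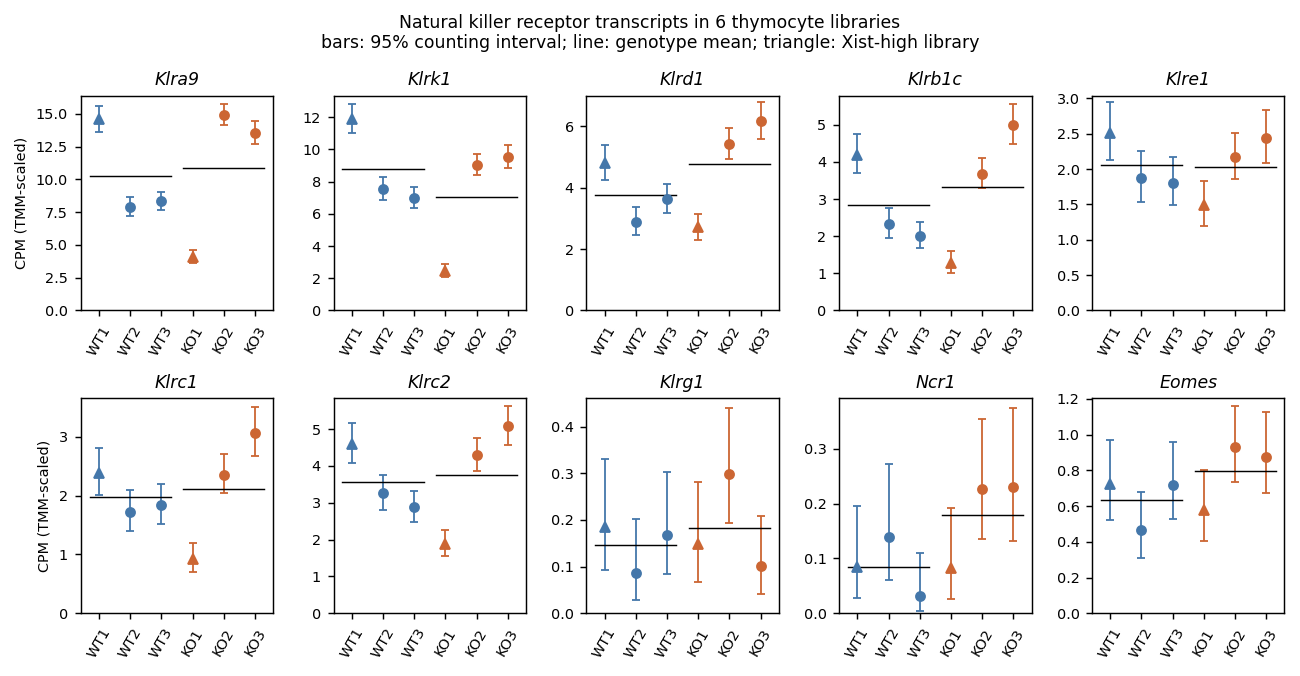
Level of each of the 10 genes in the 6 libraries (WT1 to WT3 wildtype, KO1 to KO3 labelled knockout), in CPM on an axis that starts at 0. Bars are 95% counting intervals, lines are genotype means and triangles mark the Xist-high library of each genotype. KO1 is the lowest point for 7 genes, among them Klra9 at 4.08 CPM and Klrk1 at 2.46 CPM.

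Klrd1 encodes CD94, the chain that pairs with NKG2 proteins. Klrd1 (ENSMUSG00000030165, chromosome 6, 129591782 to 129598775) stood at 4.80, 2.89 and 3.62 CPM in wildtype and at 2.71, 5.41 and 6.17 CPM in the labelled knockout. The lowest and the highest values were both labelled knockout, and the wildtype range lay inside that of the labelled knockout. None of its 50-base stretches occurs in another gene's transcripts. The means were 3.77 ± 0.962 and 4.76 ± 1.82 CPM (SD, n = 3 each). The fold was 1.27 (95% interval 0.804 to 1.99, adjusted p = 0.638 by edgeR's quasi-likelihood test).

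Klrc1 encodes NKG2A, the inhibitory partner of CD94, and Klrc2 encodes NKG2C, an activating partner. Klrc1 (chromosome 6, 129666015 to 129678973) stood at 2.38, 1.73 and 1.84 CPM in wildtype and at 0.925, 2.36 and 3.08 CPM in the labelled knockout. Klrc2 (chromosome 6, 129647496 to 129660689) stood at 4.60, 3.25 and 2.88 CPM in wildtype and at 1.88, 4.30 and 5.07 CPM in the labelled knockout. For both, labelled knockout replicate 1 was lowest and replicate 3 highest of all libraries, and the genotypes overlapped. The fold was 1.07 (0.609 to 1.89, adjusted p = 0.930) for Klrc1 and 1.05 (0.632 to 1.75, adjusted p = 0.944) for Klrc2, by edgeR's quasi-likelihood test. The genes resemble each other: 31.0% of the stretches of Klrc1 occur in Klrc2 and 12.3% of those of Klrc2 in Klrc1, which makes their split uncertain.

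Klrk1 (ENSMUSG00000030149, chromosome 6, 129610323 to 129623864) encodes NKG2D, an activating receptor for stress-induced ligands. Its level was 11.9, 7.53 and 6.97 CPM in wildtype and 2.46, 9.04 and 9.53 CPM in the labelled knockout, from 709, 435 and 455 and from 149, 759 and 663 counts. Labelled knockout replicate 1 was the lowest library, at 27.4% of the mean of the other 5, and wildtype replicate 1 the highest. The 95% counting interval of that library was 2.08 to 2.89 CPM. The means were 8.80 ± 2.69 and 7.01 ± 3.95 CPM (SD, n = 3 each), and the log2 difference was -0.32 with a standard error of 0.53. No stretch of its transcripts is shared with another gene.

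Klrb1c encodes NK1.1, the antigen by which natural killer and natural killer T cells of some strains are recognised. Klrb1c (chromosome 6, 128778485 to 128789215) stood at 4.19, 2.32 and 2.01 CPM in wildtype and at 1.27, 3.68 and 5.001 CPM in the labelled knockout. Again replicate 1 was the highest wildtype library and the lowest labelled knockout library, and the genotypes overlapped. The fold was 1.17, with an interval of 0.545 to 2.52 (adjusted p = 0.864 by edgeR's quasi-likelihood test). The gene overlaps the annotated model Gm44511, and 12.4% of its stretches occur there. Klre1, whose product forms receptors with the Klri proteins, stood at 2.52, 1.87 and 1.81 CPM in wildtype and at 1.49, 2.17 and 2.44 CPM in the labelled knockout. It had the same lowest and highest libraries as Klrk1 in a narrower range, with a fold of 0.987 (0.667 to 1.46, adjusted p = 0.982 by edgeR's quasi-likelihood test).

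Klrg1, an inhibitory receptor for cadherins on mature killer cells, and Ncr1, which encodes the activating receptor NKp46, were close to the limit of detection. Klrg1 had 11, 5 and 11 counts in wildtype and 9, 25 and 7 in the labelled knockout, and labelled knockout replicate 2 was its highest library. Ncr1 had 5, 8 and 2 counts in wildtype and 5, 19 and 16 in the labelled knockout, and its counts were too low for the filter. Wildtype replicate 3 lay under the 3 counts (0.0460 CPM there) that a count of 0 allows, and the genotypes shared the value of 5. The fold of Klrg1 was 1.26 (0.542 to 2.92, adjusted p = 0.821 by edgeR's quasi-likelihood test).

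Eomes encodes a T-box factor of mature natural killer cells and memory-like CD8 T cells and is the 1 member that is not a receptor (chromosome 9, 118478212 to 118486132). It stood at 0.721, 0.467 and 0.720 CPM in wildtype and at 0.578, 0.929 and 0.877 CPM in the labelled knockout. Its lowest library was wildtype replicate 2, its highest labelled knockout replicate 2, and the genotypes overlapped. The fold was 1.25 (0.760 to 2.06, adjusted p = 0.690 by edgeR's quasi-likelihood test).

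No member passed the test between genotypes. Of the 7 members tested, 0 had an adjusted p under 0.05 and 0 an unadjusted p under 0.05 by edgeR's quasi-likelihood test. By DESeq2, 0 of the 7 had an unadjusted p under 0.05 and 0 were called, with no adjusted p for Klrg1 and Eomes. Among all 18690 tested genes, edgeR called 17 (0.0910%) and DESeq2 604 (3.23%), and an unadjusted p under 0.05 was found for 14.6% by edgeR and 14.8% by DESeq2. The median log2 difference over the 9 members fitted was 0.10, against 0.01 over all tested genes. Of the 10 members, 0 had genotypes that did not overlap, and 0 of the 8 not selected on spread, against 20.3% of tested genes. The members were proposed with spread within a genotype in view, which makes overlap likely, so this count supports nothing further. The narrowest of the intervals of the fold, that of Klre1, reached from 0.667 to 1.46, so differences inside these intervals were not detectable with 3 mice per genotype.

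Most members shared their lowest library, but not their highest. Labelled knockout replicate 1 was the lowest library for 7 members, all but Klrg1, Ncr1 and Eomes. Without Klra9 and Klrk1, which were selected on such spread, it was lowest for 5 of 8, against 19.7% of tested genes. The highest labelled knockout library exceeded the lowest by more than 2-fold in 6 of these 8, against 16.2% of tested genes. The median ratio of highest to lowest library over the 10 members was 2.87 within the labelled knockout and 1.68 within wildtype, and over all tested genes it was 1.29 and 1.28. Since the members were proposed with this spread in view, these counts describe the libraries and support nothing further. The highest library was labelled knockout replicate 2 for Klra9, wildtype replicate 1 for Klrk1 and Klre1, and labelled knockout replicate 3 for Klrd1, Klrb1c, Klrc1 and Klrc2.

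The direction between genotypes depended on the libraries compared. In replicate 1, the Xist-high library of each genotype, the log2 ratio of labelled knockout to wildtype was -1.84 for Klra9, -2.27 for Klrk1, -1.72 for Klrb1c, -1.36 for Klrc1, -1.29 for Klrc2, -0.82 for Klrd1 and -0.76 for Klre1. In the mean of replicates 2 and 3 it was 0.81 for Klra9, 0.36 for Klrk1, 1.01 for Klrb1c, 0.61 for Klrc1, 0.61 for Klrc2, 0.83 for Klrd1 and 0.33 for Klre1. All 7 thus had opposite signs. For 9 of 10 members (7 of the 8 not selected on spread) labelled knockout was lower in replicate 1, while both Xist-low labelled knockout libraries lay above both Xist-low wildtype libraries, as they did for 17.0% of tested genes. The exception was Klrg1, whose log2 ratios were -0.31 and 0.64 but whose labelled knockout replicate 3 lay between the Xist-low wildtype libraries. Ncr1 is in this count by its CPM alone, since both replicate 1 libraries had 5 counts. With 1 Xist-high library per genotype, sex and the mouse cannot be told apart, and whether the genotype difference depends on sex was not tested.

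**Figure D2:**
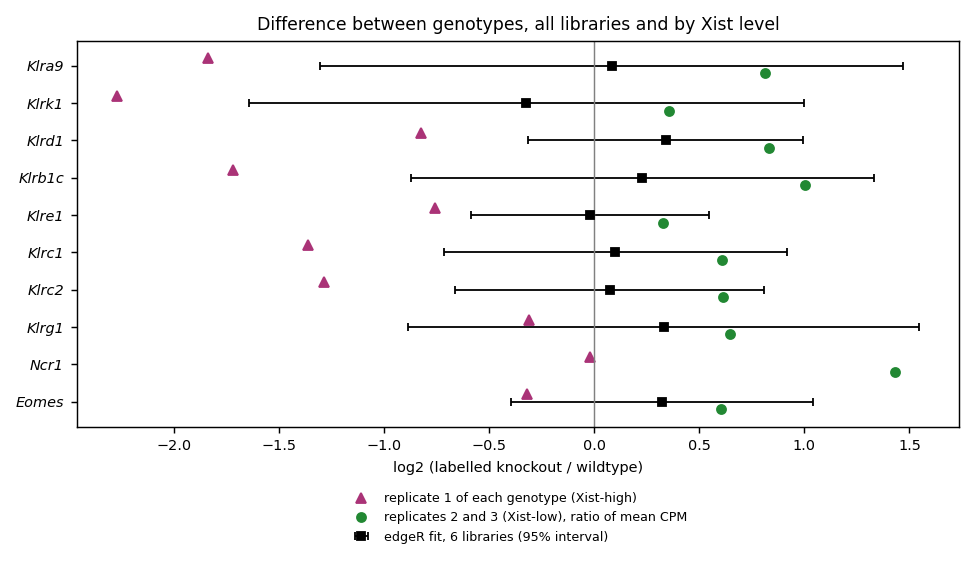
Log2 ratio of labelled knockout to wildtype for each gene. Squares are the fit over all 6 libraries with 95% intervals, triangles the Xist-high replicate 1 of each genotype, and circles the mean of replicates 2 and 3. Triangles lie left of 0 for every gene and circles right of 0, as for Klrb1c at -1.72 and 1.01.

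With both libraries of replicate 1 left out, 2 of 8 tested members were higher in the labelled knockout than in wildtype. Klrb1c was 2.01-fold higher (log2 difference of 1.004, adjusted p = 0.0470) and Klrd1 1.78-fold higher (0.83, adjusted p = 0.0498), by edgeR's quasi-likelihood test with 2 libraries per genotype. In that comparison 2.06% of 19127 tested genes were called higher and 1.92% lower. Klrc2 (adjusted p = 0.0941) and Klrc1 (adjusted p = 0.153) had an unadjusted p under 0.05 in the same edgeR fit without reaching the threshold. The 4 of 8 members at such a p compare with 27.2% of all genes tested there. For Klra9 and Klrk1 the log2 differences were 0.81 and 0.36, given without a test. With labelled knockout replicate 1 alone left out, edgeR called 0 of 8 members, with 2 at an unadjusted p under 0.05, a share near the 18.6% of all genes tested in that fit. The 2 calls thus rest on the omission of both libraries.

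Per kilobase of exon, Klra9 had the highest level, 8.26 CPM per kilobase as a mean over the 6 libraries. The length counts every annotated exon base of a gene, whether or not it is used in these cells, so the order depends on the annotation. Klrd1 followed with 3.33, and Klrk1, Klrb1c and Klrc1 were close together at 1.10, 1.04 and 1.03 CPM per kilobase. Klrc2 stood at 0.631 and Klre1 at 0.586. Eomes (0.172), Klrg1 (0.116) and Ncr1 (0.0857) formed the lower end. Klrk1, Klrb1c and Klrc1 do not differ beyond the spread of their libraries, nor do Klrc2 and Klre1, or Klrg1 and Ncr1. For scale, the thymocyte coreceptor gene Cd8a reached 447 CPM per kilobase. The receptors were thus a small part of the RNA of these samples, and in bulk RNA fewer cells of a type and less RNA per cell cannot be told apart.

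Ratios between receptors within a library do not depend on how that library was scaled. They are ratios of counts without correction for exon length, so they serve to compare libraries and not the levels of 2 genes. Klrc2 has 5812 annotated exon bases and Klrc1 1984, and per kilobase of these Klrc1 had the higher level (1.03 against 0.631 CPM). Klrc2 to Klrc1, the activating to the inhibitory partner of CD94, was 1.93, 1.88 and 1.57 in wildtype and 2.04, 1.82 and 1.65 in the labelled knockout. The 95% counting intervals of these 6 ratios overlap, so no difference in this split was detectable beyond counting error. Klrk1 to Klrd1 was 2.48, 2.60 and 1.93 in wildtype and 0.909, 1.67 and 1.55 in the labelled knockout. Here every wildtype library lay above every labelled knockout library. In labelled knockout replicate 1 the ratio was lowest, with an interval of 0.723 to 1.14 that lay below those of the other 5. The intervals of wildtype replicate 3 (1.64 to 2.27) and labelled knockout replicate 2 (1.49 to 1.88) overlap. The separation was noticed after the values were seen, involves a gene selected on spread and has no test. Klra9 to Klrd1 was 1.51 in labelled knockout replicate 1 and between 2.19 and 3.04 in the others. Klrb1c to Klrd1 was also lowest in that library, at 0.470, and between 0.555 and 0.874 in the others. Its interval there (0.353 to 0.619) overlapped those of wildtype replicate 3 (0.445 to 0.690) and labelled knockout replicate 2 (0.587 to 0.788).

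**Figure D3:**
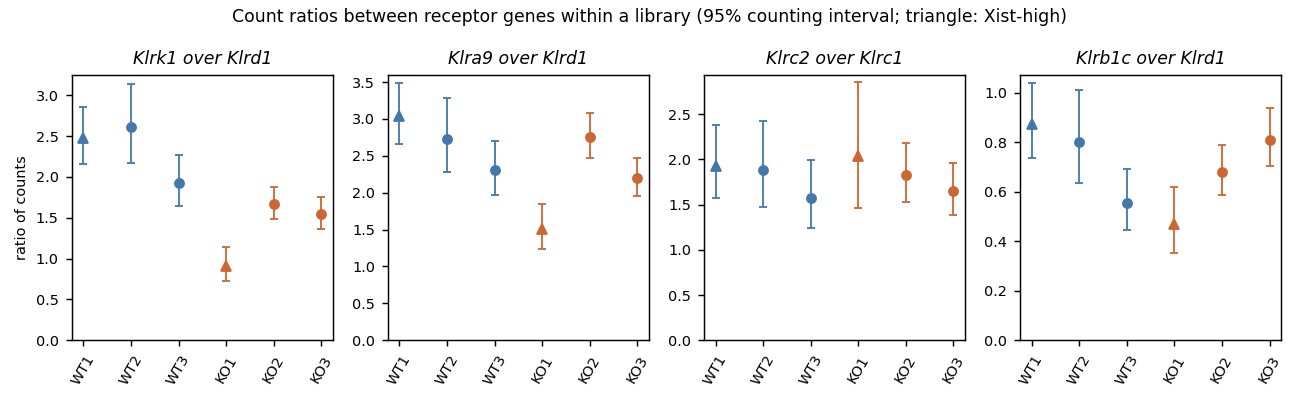
Ratio of the counts of pairs of receptor genes in each library (WT1 to WT3 wildtype, KO1 to KO3 labelled knockout), with 95% counting intervals. Klrc2 to Klrc1 lies between 1.57 and 2.04 in all 6 libraries, with triangles for the Xist-high libraries, while Klrk1 to Klrd1 is 0.909 in KO1 and 1.55 to 2.60 elsewhere.

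Across the natural killer gene complex, the low level in labelled knockout replicate 1 was found in more of the receptor genes than of the genes between them, which is given as a description without a test. From Klrb1a to Klra1 (chromosome 6, 128609227 to 130386874, 1.78 Mb) 22 tested receptor genes, 7 of them members, had a median level in that library of 47.6% of the mean of the other 5, with a range of 21.7% to 84.1%. The 17 other tested genes of the interval had a median of 91.4% (31.2% to 181%), and all tested genes one of 99.1%. The library was the lowest for 16 of the 22 receptor genes and for 6 of the 17 others, against 19.7% of all tested genes. The 22 include Klra9 and Klrk1, selected on such spread, and members proposed with it in view, so their count and median support nothing further. In the lists of receptor genes that are not members, inside or outside this interval, it was lowest for 5 of 10 tested Ly49 genes. It was lowest for 4 of 6 tested NKR-P1, NKG2 and KLR genes. Klrc3, the NKG2E gene next to Klrc2, stood at 21.7%, from 8 counts in that library. Among the interspersed genes, the lymphocyte activation gene Cd69 stood at 82.5% and Clec2d, whose product is a ligand of NKR-P1 receptors, at 115%. Clec9a and Clec7a, lectin receptors of dendritic and myeloid cells, stood at 45.9% and 42.8%.

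**Figure D4:**
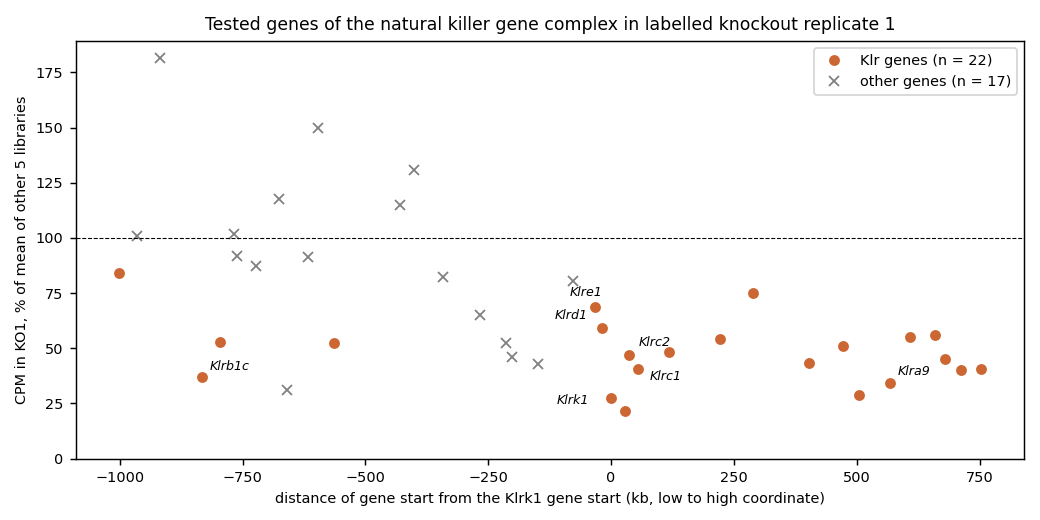
Level of each tested gene of the natural killer gene complex in labelled knockout replicate 1, as a percentage of the mean of the other 5 libraries, against distance from the start of Klrk1 in kilobases, with circles for receptor genes and crosses for others. The 22 receptor genes, which include members selected or proposed with spread in view, have a median of 47.6% and the 17 other genes one of 91.4%.

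The rest of the Ly49 family showed a similar range without a call. All 12 genes listed were in the table, 10 were tested, and 0 were called by edgeR or DESeq2, with 0 at an unadjusted p under 0.05 by either. Their summed level was 17.2, 12.3 and 8.90 CPM in wildtype and 7.20, 16.0 and 18.7 CPM in the labelled knockout, with the minimum in labelled knockout replicate 1 and the maximum in replicate 3. Klra7, which encodes the inhibitory Ly49G, stood at 4.13, 2.63 and 1.55 CPM in wildtype and at 1.77, 3.84 and 3.91 CPM in the labelled knockout. Its lowest library was wildtype replicate 3. Klra8, which encodes the activating Ly49H, stood at 0.537, 0.415 and 0.383 CPM in wildtype and at 0.132, 0.536 and 0.417 CPM in the labelled knockout. Klra17 followed another order, at 0.268, 0.467 and 0.414 CPM in wildtype and 0.347, 0.489 and 1.57 CPM in the labelled knockout. It encodes Ly49Q, a receptor of plasmacytoid dendritic cells, and Siglech, a marker of those cells, was likewise highest in labelled knockout replicate 3 (21.9 CPM against 2.16 to 7.04 CPM elsewhere). With both replicate 1 libraries left out, 7 of 12 tested Ly49 genes had an unadjusted p under 0.05, against 27.2% of all genes tested there, and 0 were called by edgeR.

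Of 9 other NKR-P1, NKG2 and KLR genes listed, 8 were in the table and 6 were tested. None was called by edgeR or DESeq2, with 0 at an unadjusted p under 0.05 by either tool. Klri2, which encodes a partner of the Klre1 product, stood at 1.14, 1.37 and 0.873 CPM in wildtype and at 0.611, 1.62 and 1.31 CPM in the labelled knockout, lowest in replicate 1 like Klre1. Klrg2 was the 1 tested gene of the group with a higher level in labelled knockout replicate 1 than the mean of the other libraries (145%), from few counts.

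Many of the kinases and scaffolds that pass on the receptors' signals also serve the T cell receptor, while others, such as Tyrobp and Hcst, are adaptors of natural killer receptors. Labelled knockout replicate 1 was the lowest library for 6 of the 20 tested genes of this list, against 19.7% of all tested genes. Of 20 tested, edgeR called 0, with 8 at an unadjusted p under 0.05 (14.6% of all tested genes had such a p), 7 of these fitted lower in the labelled knockout. DESeq2 called 2 lower: Inpp5d, a phosphatase recruited by inhibitory receptors (0.743-fold, adjusted p = 0.0178 by DESeq2), and Lat, the scaffold of T cell receptor signalling (0.772-fold, adjusted p = 0.0294 by DESeq2). Tyrobp, the DAP12 adaptor of activating Ly49 and NKG2C receptors, stood at 7.75, 8.998 and 7.20 CPM in wildtype and at 5.68, 11.99 and 21.6 CPM in the labelled knockout. Its minimum lay in labelled knockout replicate 1 and its maximum in replicate 3. Hcst, the DAP10 adaptor of NKG2D, stood at 11.5, 8.62 and 7.95 CPM in wildtype and at 7.86, 9.43 and 9.64 CPM in the labelled knockout, a smaller range than that of Klrk1.

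Of the receptors' ligands, 17 of 22 listed genes were in the table and 12 were tested. By edgeR 0 were called, with 1 at an unadjusted p under 0.05, the E-cadherin gene Cdh1, a ligand of Klrg1. Cdh1 stood at 4.31, 3.22 and 3.97 CPM in wildtype and at 4.34, 7.79 and 8.997 CPM in the labelled knockout, without overlap (1.84-fold, adjusted p = 0.178 by edgeR's quasi-likelihood test). DESeq2 called it higher (1.83-fold, adjusted p = 0.0194 by DESeq2). H2-T23, which encodes Qa-1, the ligand of CD94 with NKG2, stood at 177, 154 and 152 CPM in wildtype and at 136, 162 and 156 CPM in the labelled knockout. The NKG2D ligand gene Ulbp1 was highest in labelled knockout replicate 1, at 67.2 CPM against 36.7 to 57.6 CPM in the other libraries, whereas Klrk1 was lowest there.

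Among 13 tested transcription factors of natural killer and innate lymphocytes, edgeR called 0, with 2 at an unadjusted p under 0.05, and DESeq2 called 1, Zeb2, higher in the labelled knockout (1.71-fold, adjusted p = 0.0175 by DESeq2). Tbx21, which encodes T-bet, the T-box relative of Eomes, stood at 3.79, 2.79 and 1.81 CPM in wildtype and at 2.36, 4.04 and 3.81 CPM in the labelled knockout, with its lowest value in wildtype replicate 3. Of 15 genes of the interleukin-15 and interleukin-12 receptor families and their signalling, 3 had an unadjusted p under 0.05 and 0 were called by edgeR. DESeq2 called Il2rg, the common gamma chain, lower (0.767-fold, adjusted p = 0.00318 by DESeq2). Il2rb, the interleukin-15 receptor chain that natural killer cells carry, stood at 31.2, 29.0 and 25.6 CPM in wildtype and at 20.6, 33.1 and 37.5 CPM in the labelled knockout, the same lowest and highest library as for Klrc1 and Klrc2. Of 14 other tested surface genes of natural killer cells, 0 were called by edgeR or DESeq2, with 0 at an unadjusted p under 0.05 by either.

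The cytotoxic genes did not share a single order. Of 16 tested, edgeR called 0, with 2 at an unadjusted p under 0.05, Gzma and Gzmb. Gzma, a granzyme, stood at 27.9, 27.1 and 35.9 CPM in wildtype and at 44.6, 43.4 and 59.3 CPM in the labelled knockout, replicate 1 included. Its groups did not overlap (1.62-fold, adjusted p = 0.138 by edgeR's quasi-likelihood test), and DESeq2 called it higher (1.61-fold, adjusted p = 0.00256 by DESeq2). Ccl5, a chemokine of killer lymphocytes, had 6.94 CPM in labelled knockout replicate 1 and 13.3 to 17.5 CPM in the others. Labelled knockout replicate 1 was the lowest library for 10 of the 16 tested genes of this list, against 19.7% of all tested genes. Over all these groups of genes the median log2 difference between genotypes was 0.25 for the other Ly49 genes, 0.050 for the other NKR-P1, NKG2 and KLR genes and -0.12 for the adaptors, against 0.01 for all tested genes. It was -0.0054 for the ligands, -0.028 for the transcription factors, -0.11 for the interleukin receptors, 0.25 for the other surface genes and -0.00097 for the cytotoxic genes.

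Markers of some other cell types moved with the receptors in labelled knockout replicate 1, and their part in the result was not tested. That library was the lowest for 19.7% of all tested genes. Over 9 B cell markers, 8 of them lowest in that library, the summed level was 56.7, 46.9 and 55.4 CPM in wildtype and 31.9, 57.4 and 69.9 CPM in the labelled knockout. For 10 dendritic cell markers, 7 lowest there, it was 185, 162 and 165 CPM in wildtype and 103, 191 and 243 CPM in the labelled knockout. Over 10 macrophage markers, also 7 lowest there, it was 82.4, 56.4 and 57.8 CPM in wildtype and 48.1, 84.6 and 101 CPM in the labelled knockout. These sums stood in labelled knockout replicate 1 at 55.8%, 54.7% and 62.9% of the mean of the other 5 libraries, beside 40.7% for the 10 members. Without Klra9 and Klrk1, which were selected on this spread, the other 8 members stood at 51.8%, close to the dendritic and B cell sums. The dendritic sum rests largely on 1 gene, H2-Ab1, at 97.0, 86.2 and 90.4 CPM in wildtype and 38.3% in labelled knockout replicate 1. Bst2 and Ccr7, also in that list, stood at 82.7% and 88.9% there. In the macrophage list Cd68 stood at 105% and Mrc1 at 98.3% there. None of these 29 markers was at 0 in all libraries. The summed thymocyte markers stood at 93.4%, the stroma and epithelium markers at 96.8%, the innate-like T cell markers at 86.6% and the gamma delta T cell markers at 116%. A sum is weighted by its most abundant genes, in the innate-like list Il17rb (98.6%) and Slamf1 (88.6%). In that list 3 of 10 markers were lowest in labelled knockout replicate 1: Cxcr3 (32.9%), Ccr6 (46.3%) and Cxcr6 (49.0%). The others of the list stood at 77.0% to 112%. Cd4, Cd8a and Cd3e were present in every library, at 325 CPM or more.

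**Figure D5:**
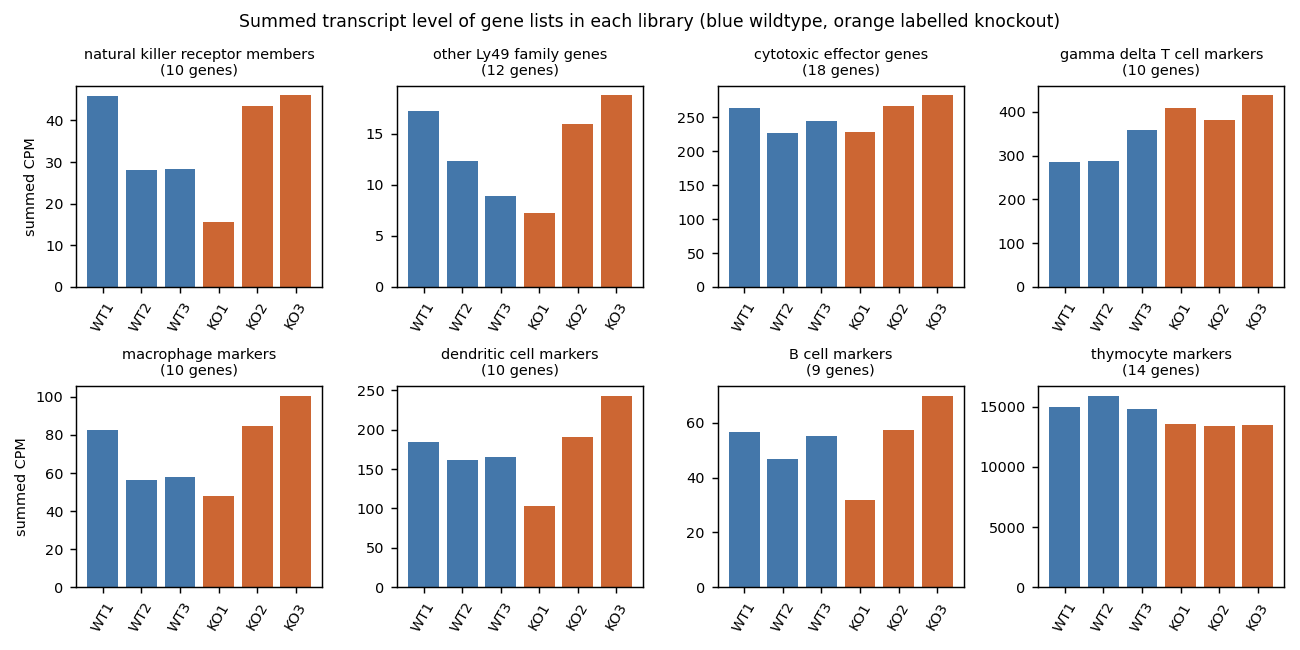
Summed level of 8 gene lists in each library, in CPM on axes that start at 0 (WT1 to WT3 wildtype in blue, KO1 to KO3 labelled knockout in orange). KO1 is the lowest bar for the 10 members, other Ly49 genes and macrophage, dendritic cell and B cell markers, and stands at 93.4% of the mean of the other 5 libraries for thymocyte markers.

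In these marker lists edgeR called 0 genes over all 6 libraries, with 1 of 10 macrophage, 0 of 10 dendritic cell and 0 of 9 B cell markers at an unadjusted p under 0.05, and DESeq2 called 0 in all 3. Of 10 gamma delta T cell markers, 8 had an unadjusted p under 0.05 by edgeR, against 14.6% of all tested genes, and 0 were called, and DESeq2 called Cd163l1 and Sox13 higher. With both replicate 1 libraries left out, edgeR called 5 of 10 macrophage markers higher in the labelled knockout (C1qa, C1qb, C1qc, Mrc1 and Vcam1), and 3 of 10 innate-like T cell markers (Cxcr3, Cxcr6 and Plac8). The 2 receptor genes called in that comparison, Klrb1c and Klrd1, thus stood beside markers of macrophages and innate-like T cells, whose part in it was not tested.

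Genes were ranked by Pearson correlation of log2 CPM over the 6 libraries. The ranking took in 11449 tested genes with a mean of at least 1 CPM, leaving out those with only a gene-model or clone name. The genes most like Klra9 were the pseudogene Got2-ps1 (r = 0.996), the macrophage complement gene C1qc (0.989), Tmem223 (0.988), the immunoglobulin A constant gene Igha (0.988) and Frat1 (0.986). The genes most like Klrk1 were the histone deacetylase gene Hdac11 (0.994), the creatine kinase gene Ckb (0.989), Camk1g (0.988), Zfp622 (0.988) and Fasl, the Fas ligand of killer lymphocytes (0.987). None of these is a natural killer receptor gene, and 240 and 239 of the ranked genes had a correlation above 0.9 with Klra9 and Klrk1. Within the members, Klra9 correlated at 0.969 with Klrc2, 0.952 with Klrb1c, 0.949 with Klrc1, 0.948 with Klre1, 0.942 with Klrk1, 0.895 with Klrd1, 0.698 with Eomes and 0.326 with Klrg1. Klrk1 correlated at 0.933 with Klrc2, 0.930 with Klrc1, 0.913 with Klre1, 0.888 with Klrb1c, 0.732 with Klrd1, 0.461 with Eomes and 0.118 with Klrg1. All points share the same 6 libraries, so these values describe the order of libraries. Without labelled knockout replicate 1 the value for Klra9 with Klrk1 was 0.854. The value for Klrk1 fell to 0.679 with Klrc1, 0.657 with Klrd1 and 0.399 with Eomes. Some values rose instead, such as that for Klrk1 with Klre1 (0.949) and that for Klra9 with Klrd1 (0.905).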

How the data were processed

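Thymocyte RNA of 6 mice was purified on NucleoSpin RNA columns and sequenced as TruSeq Stranded mRNA libraries, per the labels' protocols. STAR 2.5.4b and featureCounts were used on GRCm38, per the submitters' processing notes. Not given in the sources used here are the counting strand, the annotation release and how multi-mapped reads were treated. The authors deposited raw, whole-number counts per Ensembl gene and library, per the file headers. All 55536 identifiers matched GENCODE M21.

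Members and gene lists were chosen with earlier results of these data known. Genes were filtered with filterByExpr (18690 kept) and scaled by TMM. Genotypes were compared with edgeR 4.0.16 (robust glmQLFit, glmQLFTest, R 4.3.3) and no covariate, at a Benjamini-Hochberg adjusted p of 0.05 over all tested genes. CPM are counts over the TMM-scaled library size. The common biological coefficient of variation was 18.7%. Counting intervals are exact, at 95%, and cover counting error only. A count of 0 allows up to 3 counts, or 0.0357 to 0.0519 CPM. The test was checked on simulated counts.

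Named genes are all members, up to 3 genes of smallest unadjusted p and up to 3 of highest counts per list, and the 5 genes most correlated with Klra9 and with Klrk1. Other named genes of the lists and of the natural killer gene complex were added after their values were seen. No pair of the 6 libraries agreed within sampling noise (chi-square over degrees of freedom between 35.4 and 180.03). Alternatives were DESeq2 1.42.0, RLE and upper-quartile scaling, no low-count filter, library size by total counts, a replicate block, each library left out, and both replicate 1 libraries left out.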

Additional observations from a re-analysis of the deposited data

Results flagged for a closer look

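For 9 of the 10 genes, labelled knockout replicate 1 was below wildtype replicate 1, while both Xist-low labelled knockout libraries were above both Xist-low wildtype libraries. This held for 7 of the 8 genes not selected on spread, and for 3172 (17.0%) of the 18690 tested genes. Klra9 and Klrk1 were selected on spread within a genotype and the others were proposed with it in view, so the count supports nothing further. The difference between the log2 ratio of labelled knockout to wildtype in the Xist-high libraries and that in the Xist-low libraries was -2.73 for Klrb1c, -2.65 for Klra9 and -2.63 for Klrk1. It was -1.97 for Klrc1, -1.9 for Klrc2, -1.66 for Klrd1 and -1.09 for Klre1. For Ncr1, which had 5 counts in each replicate 1 library and at most 19 in the others, it was -1.45, and for Eomes -0.92. Klrg1 had opposite signs by the means (a difference of -0.96), but 1 of its Xist-low labelled knockout libraries lay between the wildtype ones. The difference was not tested, since each genotype had 1 Xist-high library. Opposite directions of either kind were found in 6105 of the 18690 tested genes.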

How the results depend on the processing

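With 3 mice per genotype, the direction of 7 of 9 fitted members turned when single libraries were left out. The number of genes called was 604 by DESeq2, 840 without the low-count filter, 762 without both replicate 1 libraries and 8 to 29 with single libraries left out (8 without wildtype replicate 2, 29 without labelled knockout replicate 1), against 17 in all 6. Without both replicate 1 libraries 2 members were called, and log2 differences were 0.81 for Klra9, 0.36 for Klrk1, 0.83 for Klrd1, 1.004 for Klrb1c and 0.33 for Klre1. Leaving out single libraries gave log2 ranges of -0.22 to 0.47 for Klra9, -0.60 to 0.082 for Klrk1, 0.11 to 0.62 for Klrd1, -0.18 to 0.62 for Klrb1c, -0.17 to 0.16 for Klre1, -0.26 to 0.45 for Klrc1, -0.20 to 0.39 for Klrc2, -0.24 to 0.62 for Klrg1 and 0.15 to 0.50 for Eomes, with 0 members called. The sign turned without labelled knockout replicate 3 for Klra9, Klrb1c, Klrc1 and Klrc2, without its replicate 2 for Klra9, Klrc2 and Klrg1, and without its replicate 1 for Klrk1 and Klre1. It also turned without wildtype replicate 1 for Klre1, without replicate 2 for Klra9 and without replicate 3 for Klra9 and Klrc2. Klrd1 and Eomes kept their sign in these fits. The cause of these shifts was not tested. Of the other 88 log2 differences, all kept their direction, and the 70 with an adjusted p kept their side of the threshold, and the 40 mean levels under other scalings stayed within the spread between replicates. Ncr1 did not pass the filter over all 6 libraries. It was fitted without the filter and in 5 fits with libraries left out, with log2 differences of 0.70 to 1.66 and no adjusted p under 0.05.

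Libraries with the same replicate number did not deviate together (correlations of -0.11, 0.03 and -0.12). These correlations cannot decide whether the numbers pair the mice. The Xist-high libraries of both genotypes carry the same number, yet their correlation was -0.11, so a shared trait can be missed. The labels do not say whether the numbers pair the mice. With the replicate number as a block, 9 genes were called, none of them a member, and the log2 difference was -0.011 for Klra9 and -0.019 for Klrc1.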
